A study of Mus musculus with 5 samples.

Results

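Transcripts of non-collagen cartilage proteins were examined in whole knee joints of mice lacking both epiphycan and biglycan, set against wildtype joints. The genes were the 4 matrilins (Matn1, Matn2, Matn3 and Matn4), lubricin (Prg4), Cilp, Cytl1, Scrg1 and Mia, 9 in all. They were listed by name, with earlier results of these data known. The platform annotation held probe sets for 7 of the 9, 8 probe sets among 22626 other than array controls, with 2 for Matn2. Cilp and Cytl1 had none under their symbols, synonyms or gene numbers and are not analysed here. None of the 7 genes passed the test of double-null against wildtype joints. After normalisation Scrg1 was lower on every double-null array than on both wildtype arrays, as were 10.2% of all genes tested. Matn4 was higher on every double-null array than on both wildtype arrays, as were 9.24% of all probe sets. Prg4 had a log2 fold change of 0.28 with groups that overlapped.

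The tested animals were double-null for epiphycan (Epyc) and biglycan (Bgn), and the controls were wildtype. Animals of both groups were male, 3 months old and of a C57/Bl6:129 hybrid strain. The RNA was total RNA of tibio-femoral joints, and each array held a pool of 3 mice, 6 joints in all. There were 3 double-null and 2 wildtype pools, each a separate pool of animals. The values came in 2 tables of one series, called array type A and array type B here. Type A held double-null pool 3 and wildtype pool 2, and type B held double-null pools 1 and 2 and wildtype pool 1.

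Matrilins are secreted oligomeric proteins with von Willebrand factor A domains that link collagen fibrils to proteoglycans and other parts of the matrix. Matrilin-1 and matrilin-3 are largely restricted to cartilage, above all to growth plate and immature cartilage, and changes in human MATN3 cause a form of multiple epiphyseal dysplasia. Matrilin-2 and matrilin-4 are found more widely, matrilin-2 also in fibrous connective tissue and peripheral nerve. Lubricin, the product of Prg4, is a mucin-like glycoprotein that chondrocytes of the articular surface and cells of the synovial lining secrete, and it lubricates the joint surface. Scrg1 and Mia encode small secreted proteins made by chondrocytes, the second also known as cartilage-derived retinoic acid-sensitive protein.

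The promoter windows of Matn1, Matn3 and Mia are shown because of their signs on the 2 array types. Each of these 3 genes had a positive difference on type A and a negative one on type B, as had 25.7% of all genes tested. The first Matn2 probe set also had this split, at 0.30 and -0.090, but no window was available for Matn2. Each window runs from 250 bases before to 50 bases after the annotated start, in RefSeq's table for GRCm38.p6, written 5′ to 3′ on the gene's strand with the first transcribed base in capitals.
Matn1 chr4:130944135-130944434, plus strand: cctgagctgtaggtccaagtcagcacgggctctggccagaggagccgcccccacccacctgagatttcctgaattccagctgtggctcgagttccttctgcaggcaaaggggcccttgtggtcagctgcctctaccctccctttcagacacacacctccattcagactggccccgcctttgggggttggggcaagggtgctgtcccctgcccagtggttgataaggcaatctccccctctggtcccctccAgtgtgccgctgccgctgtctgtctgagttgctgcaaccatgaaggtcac
Matn3 chr12:8947679-8947978, plus strand: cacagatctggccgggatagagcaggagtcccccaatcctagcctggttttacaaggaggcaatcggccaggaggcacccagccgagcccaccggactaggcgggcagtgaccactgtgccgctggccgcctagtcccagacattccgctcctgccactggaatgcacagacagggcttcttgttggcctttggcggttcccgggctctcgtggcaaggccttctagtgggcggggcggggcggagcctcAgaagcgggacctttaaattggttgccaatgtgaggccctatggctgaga
Mia chr7:27181100-27181399, minus strand: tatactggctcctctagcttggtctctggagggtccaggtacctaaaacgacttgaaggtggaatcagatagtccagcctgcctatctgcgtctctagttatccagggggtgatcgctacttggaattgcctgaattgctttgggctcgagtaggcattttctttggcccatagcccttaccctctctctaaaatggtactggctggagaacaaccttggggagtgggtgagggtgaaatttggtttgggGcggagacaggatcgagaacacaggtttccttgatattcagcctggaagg
The windows were searched on both strands for AACAAT, a core bound by SOX factors, for TATAAA, the TATA box, and for CACGTG, an E-box. None of the 3 printed windows held any of them. The windows of Matn4, Cilp and Cytl1, not printed here, held none of them either, so the lack is not particular to the printed genes. Of 32851 windows of the same 300 bases in the table, 10.7% held AACAAT, 13.6% held TATAAA and 7.15% held CACGTG. The GC content was 61.3% for Matn1, 62.7% for Matn3 and 50.7% for Mia. The table had windows for 6 of the 9 genes, and none for Matn2, Prg4 or Scrg1. The search covered only these letters and these windows, and the array data say nothing about binding there.

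The values are signal intensities on a linear scale, scaled on each array to a 2% trimmed mean close to 250.1. Background was gauged from 27 control probe sets for Bacillus genes that mouse RNA should not bind, and the highest of them read 27.5 to 63.5 on the 5 arrays. Bgn and Epyc were lower in the double-null pools on all 4 of their probe sets, with double-null means of 5.17 to 211 against wildtype means of 85.0 to 3209. The summed signal of 15 cartilage matrix genes was 17950 to 19934 in the double-null pools, against 25530 in wildtype pool 1 and 13740 in wildtype pool 2. Joints also carried muscle and marrow. The summed signal of 6 muscle markers was 22958 to 54025 in double-null and 39817 to 43553 in wildtype pools, and that of 7 neutrophil markers was 76539 to 108580 in double-null and 76779 to 123308 in wildtype pools.

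Differences between the genotypes are given as log2 fold changes (double-null over wildtype) of quantile-normalised log2(signal + 32), fitted with array type as a term. This scale understates the change of dim genes. The gene fit covered 7436 genes above an intensity filter near a signal of 98.5. Of the 7 measured genes 4 lay above it (Prg4, Matn3, Scrg1 and Mia), while Matn1, Matn2 and Matn4 were fitted among all 22626 probe sets. With limma, 0 of the 4 genes passed an adjusted p of 0.05, where 0.121% of all genes tested did, and 0 of 4 had an unadjusted p under 0.05, against 6.17% of all genes. In the fit over all probe sets 0 of the 8 passed, where 0.0265% of all probe sets did, and 0 of 8 had an unadjusted p under 0.05, against 5.35% of all probe sets. Over the 7 genes, each by its brightest probe set, 3 had a positive and 4 a negative fold change, and the median was -0.065, beside -0.0039 over all probe sets.

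**Figure D1:**
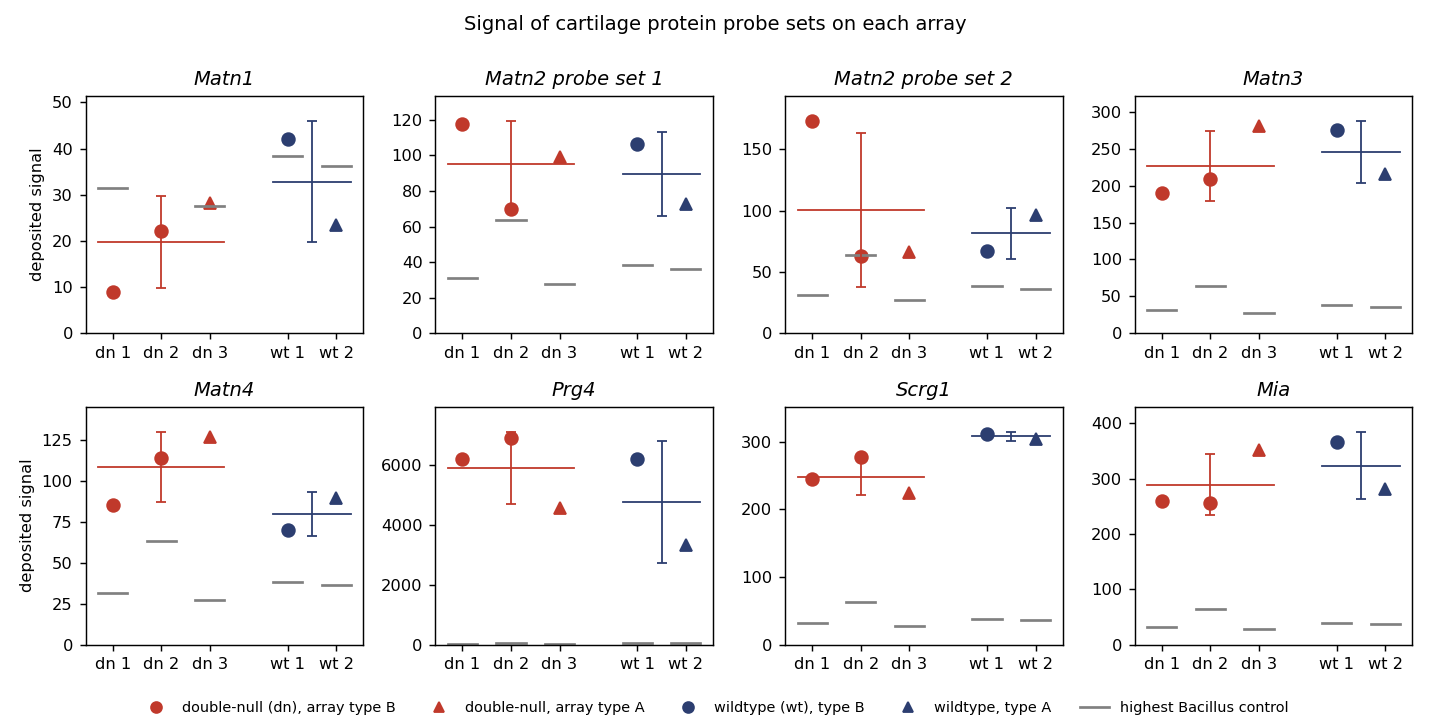
Deposited signal (vertical axis, linear from 0) of the 8 probe sets on each array, double-null pools (dn, red) left of wildtype pools (wt, blue), with circles for array type B and triangles for type A. Horizontal lines with bars are group means ± SD (n = 3 and n = 2) and grey dashes the highest Bacillus control of that array: Scrg1 is the one probe set whose signals do not overlap, and Matn1 lies near the controls.

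Prg4, encoding lubricin, gave a strong signal on every array. It read 6197, 6884 and 4544 in double-null pools 1, 2 and 3, against 6179 and 3324 in wildtype pools 1 and 2. The group ranges overlapped, since double-null pool 3 lay below wildtype pool 1, and the lowest array was wildtype pool 2. The mean was 5875 ± 1203 in double-null (SD, n = 3) and 4752 ± 2019 in wildtype pools (SD, n = 2). The log2 fold change was 0.28 ± 0.13 (SE), with a 95% interval of -0.0045 to 0.57 (limma unadjusted p = 0.053, adjusted p = 0.82). Within each table the double-null arrays were higher than the wildtype array, by 0.39 on type A and by 0.20 for each of pools 1 and 2 on type B. The wildtype pools differed from each other by 0.68 on the same scale, more than the fitted group difference. The median absolute difference between them over all genes tested was 0.21. These pools lay on different array types, so the 0.68 also holds any shift between types, for which the fit has a term. On this scale double-null pools 1 and 2, on type B, were at 12.67 and 12.66, and double-null pool 3, on type A, at 12.19.

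Matn3, the cartilage matrilin above the highest Bacillus control on all 5 arrays, read 190, 209 and 281 in double-null pools 1, 2 and 3, against 275 and 216 in wildtype pools 1 and 2. Double-null pool 3 was the highest and double-null pool 1 the lowest of all 5 arrays, so the groups overlapped fully. Means were 227 ± 48.0 in double-null (SD, n = 3) and 246 ± 41.6 in wildtype pools (SD, n = 2). The log2 fold change was -0.06 ± 0.20 (SE; 95% interval -0.50 to 0.37; limma adjusted p = 0.99). The sign differed between tables, since type A gave 0.34 and type B gave -0.37. Without wildtype pool 1 the fitted value was 0.34, and without double-null pool 1 it was 0.0015.

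Mia, like Matn3, had the highest signals in double-null pool 3 and wildtype pool 1. It read 260, 255 and 352 in double-null pools 1, 2 and 3, against 366 and 281 in wildtype pools 1 and 2. Within type B both double-null arrays lay below wildtype pool 1, and within type A double-null pool 3 lay above wildtype pool 2. The mean signal was 289 ± 54.7 in double-null (SD, n = 3) and 323 ± 60.1 in wildtype pools (SD, n = 2). The log2 fold change was -0.13 ± 0.20 (SE; 95% interval -0.56 to 0.31; limma adjusted p = 0.99), and type A gave 0.30 where type B gave -0.44. Without wildtype pool 1 it was 0.30.

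Scrg1 was the one member whose deposited signals did not overlap between the groups. It read 245, 277 and 224 in double-null pools 1, 2 and 3, against 312 and 304 in wildtype pools 1 and 2. All 3 double-null arrays lay below both wildtype arrays, which differed by 0.044 on the normalised log2 scale. Means were 249 ± 27.1 in double-null (SD, n = 3) and 308 ± 6.23 in wildtype pools (SD, n = 2). The log2 fold change was -0.29 ± 0.17 (SE; 95% interval -0.67 to 0.091; limma adjusted p = 0.88), so the difference did not pass. The direction was the same within both tables, where type A gave -0.40 and type B gave -0.20. After normalisation 10.2% of all genes tested had every double-null array below both wildtype arrays, and 9.45% had every one above. Of the 4 members above the filter 1 was below and 0 were above. These shares are of normalised values and not of deposited signals.

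Matn4, a matrilin also found outside cartilage, read 85.4, 114 and 127 in double-null pools 1, 2 and 3, against 70.3 and 89.7 in wildtype pools 1 and 2. The deposited signals overlapped, since double-null pool 1 lay below wildtype pool 2, while after normalisation all 3 double-null arrays were higher than both wildtype arrays, as 9.24% of all probe sets did. All 5 signals were above the highest Bacillus control of their array. Means were 109 ± 21.2 in double-null (SD, n = 3) and 80.0 ± 13.7 in wildtype pools (SD, n = 2). The log2 fold change was 0.42 ± 0.21 (SE; 95% interval -0.082 to 0.92; limma unadjusted p = 0.087, adjusted p = 0.92 over all probe sets). Type A gave 0.36 and type B gave 0.46.

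Matn2 was represented by 2 probe sets that did not order the arrays alike. The first read 117, 69.9 and 98.9 in double-null pools 1, 2 and 3, against 106 and 72.7 in wildtype pools 1 and 2, and the second read 173, 63.0 and 66.0 against 66.9 and 96.3. Double-null pool 1 was the highest array on both. The second probe set had 1 signal below the highest Bacillus control of its array, that of double-null pool 2. The log2 fold changes were 0.075 ± 0.27 for the first and 0.15 ± 0.41 for the second (SE, limma adjusted p = 0.99 for both). On type A they were 0.30 and -0.41, and on type B -0.090 and 0.57, so the probe sets had opposite signs on each table. Matrilin-2 is also made in peripheral nerve, and 4 Schwann cell markers had mean log2 levels, centred on each gene's mean, of 0.16, 0.056 and -0.14 in double-null pools 1, 2 and 3, against 0.16 and -0.24 in wildtype pools 1 and 2. Their part in the Matn2 values was not tested. In RNA of whole joints, fewer cells of a type and less RNA per cell cannot be told apart.

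Matn1, the classical cartilage matrix protein, was close to background in these adult joints. It read 8.89, 22.1 and 28.3 in double-null pools 1, 2 and 3, against 42.1 and 23.6 in wildtype pools 1 and 2. The signal passed the highest Bacillus control of its array on 2 of 5 arrays, double-null pool 3 and wildtype pool 1. At this level a fold change rests on the added constant. The fitted value was -0.32 ± 0.22 (SE, limma adjusted p = 0.94 over all probe sets), where type A gave 0.061 and type B gave -0.60.

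**Figure D2:**
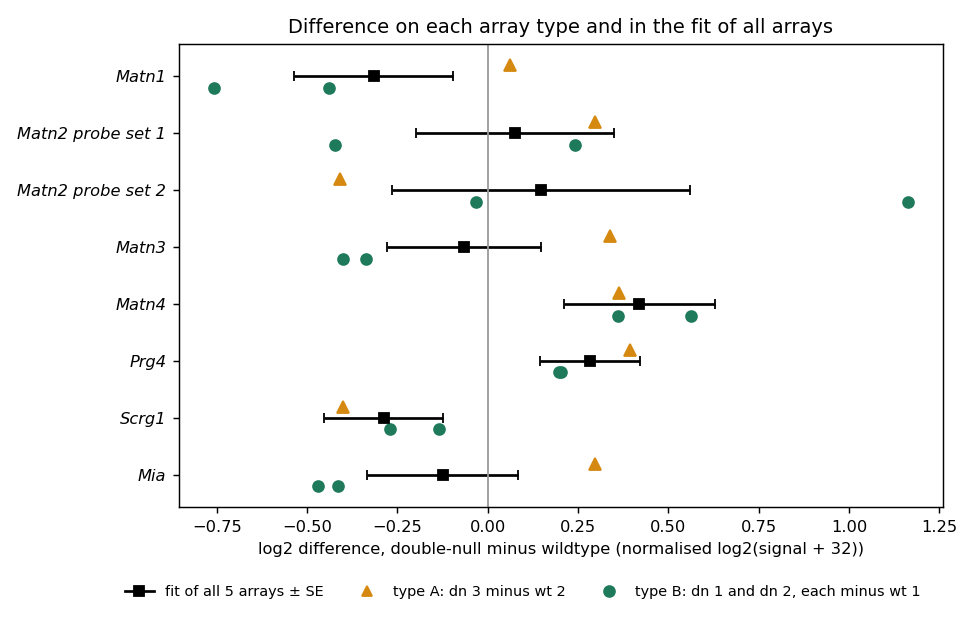
Log2 difference, double-null minus wildtype (horizontal axis), of each probe set in the fit of all 5 arrays (black squares ± SE), on array type A (triangles, 1 pair of arrays) and on array type B (circles, double-null pools 1 and 2 each against wildtype pool 1). Prg4 and Matn4 lie right of 0 and Scrg1 left of 0 on both types, while Matn1, Matn3 and Mia lie right of 0 on type A and left of 0 on type B.

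The sign split of Matn1, Matn3 and Mia was also seen in other cartilage matrix genes. Of 15 tested genes in a list of 17 cartilage structural genes, 9 were positive on type A and negative on type B, and 0 had the opposite split. Of all genes tested 25.7% were positive on type A and negative on type B. In the fit of all arrays 5 of its values were positive and 10 negative, the median was -0.12 beside -0.011 over all genes, and 0 passed with limma, 3 of them having an unadjusted p under 0.05. Its median over type A arrays was 0.21, against -0.43 over type B arrays. The mean log2 level of the list, centred on each gene's mean, was 0.040, -0.12 and 0.048 in double-null pools 1, 2 and 3, against 0.32 in wildtype pool 1 and -0.29 in wildtype pool 2. The wildtype pools thus lay on either side of all 3 double-null pools. Osteoblast and osteocyte markers had the same layout, with wildtype pools 1 and 2 at 0.14 and -0.11. Their double-null pools 1, 2 and 3 were at 0.034, -0.0028 and -0.060. Muscle, neutrophil and osteoclast markers did not have it. Matn3 and Mia were also higher in wildtype pool 1 than in wildtype pool 2, by 0.32 and 0.36, and the list by a median of 0.43. Each table has a single wildtype pool, so among the wildtype arrays the pool and the array type cannot be told apart.

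Within the list the genes with the smallest p were Comp, which encodes a pentameric matrix glycoprotein, and Col9a1, a chain of the collagen on the surface of cartilage fibrils. Comp read 5180, 3988 and 3934 in double-null pools 1, 2 and 3, against 2857 and 1989 in wildtype pools 1 and 2, a log2 fold change of 0.83 (limma adjusted p = 0.11). Col9a1 read 859, 869 and 752 against 1221 and 917, at -0.42 (limma adjusted p = 0.74). Neither passed, though Comp passed in 1 of 17 alternatives, without double-null pool 2, at 0.96 (limma adjusted p = 4.9e-05, up to 0.82 over the 17). Of 11 regulators of chondrocytes 5 were tested, 2 positive and 3 negative, with a median of -0.085 and 0 called (limma, also 0 at an unadjusted p under 0.05). Sox6, a partner of SOX9 in chondrocytes, was at 0.31 and ran from -0.45, with the replicate block and no array-type term, to 0.42 over the 17 alternatives. Pth1r, the receptor for parathyroid hormone-related protein, was at -0.52 and ran from -1.05 to 0.19, the last of these without wildtype pool 1 and the first with either type A array left out.

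Prg4 was set beside a list of genes chosen for the articular surface and the synovial lining, whose cells secrete lubricin. The RNA was of whole joints, so which cells gave the signals of these genes is not known. Of 15 listed genes 10 were tested, of which 9 had positive values, where 47.9% of all genes did, with a median of 0.43 beside -0.011 over all genes. None passed with limma, and 5 had an unadjusted p under 0.05. For 5 of the 10, all 3 double-null arrays were higher than both wildtype arrays, where 9.45% of all genes tested were, and for 1 they were lower than both. Abi3bp, encoding a matrix protein that binds cells, read 674, 482 and 348 in double-null pools 1, 2 and 3, against 174 and 251 in wildtype pools 1 and 2 (log2 fold change 1.07, limma adjusted p = 0.22). Pdpn, encoding podoplanin, a surface protein of lining fibroblasts and osteocytes, read 336, 301 and 257 against 158 and 191 (0.70, limma adjusted p = 0.32), and its value ran from 0.39, without wildtype pool 1, to 0.93. Abi3bp passed in 1 of 17 alternatives, without double-null pool 2, at 1.10 (limma adjusted p = 0.00060, up to 0.999 over the 17), and its value ran from 0.43 to 1.55. The list had a median of 0.33 within type A and 0.37 within type B, where Prg4 lay at 0.39 and 0.20. Markers of tendon and ligament, 4 tested of 6, also had a positive median, 0.59, with 3 positive values and 1 negative. Their summed signal was 13308 to 19037 in double-null pools, against 20672 and 12929 in wildtype pools 1 and 2. No array read above 684 for Thbs4 or 323 for Tnmd, so brighter genes of the list made up most of this sum. The list also shares a gene with the cartilage structural list. The mean log2 levels of the 4 tested markers, which weigh each gene alike and were centred on each gene's mean, were 0.25, 0.018 and 0.34 in double-null pools 1, 2 and 3. Those of wildtype pools 1 and 2 were -0.41 and -0.19. Of these 4 genes 2 had every double-null array above both wildtype arrays, where 9.45% of all genes tested did. Also 2 of the 4 had an unadjusted p under 0.05 with limma, against 6.17% of all genes. Thbs4 was at 1.02 (limma adjusted p = 0.054) and Tnmd at 1.03 (limma adjusted p = 0.10). Over the 17 alternatives Thbs4 passed in 2, without double-null pool 1 (limma adjusted p = 0.023) or pool 2 (0.0042), and Tnmd in 1, without double-null pool 2 (limma adjusted p = 0.00063), and for both genes the adjusted p reached 0.999. Their part in the values of the lining genes was not tested.

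**Figure D3:**
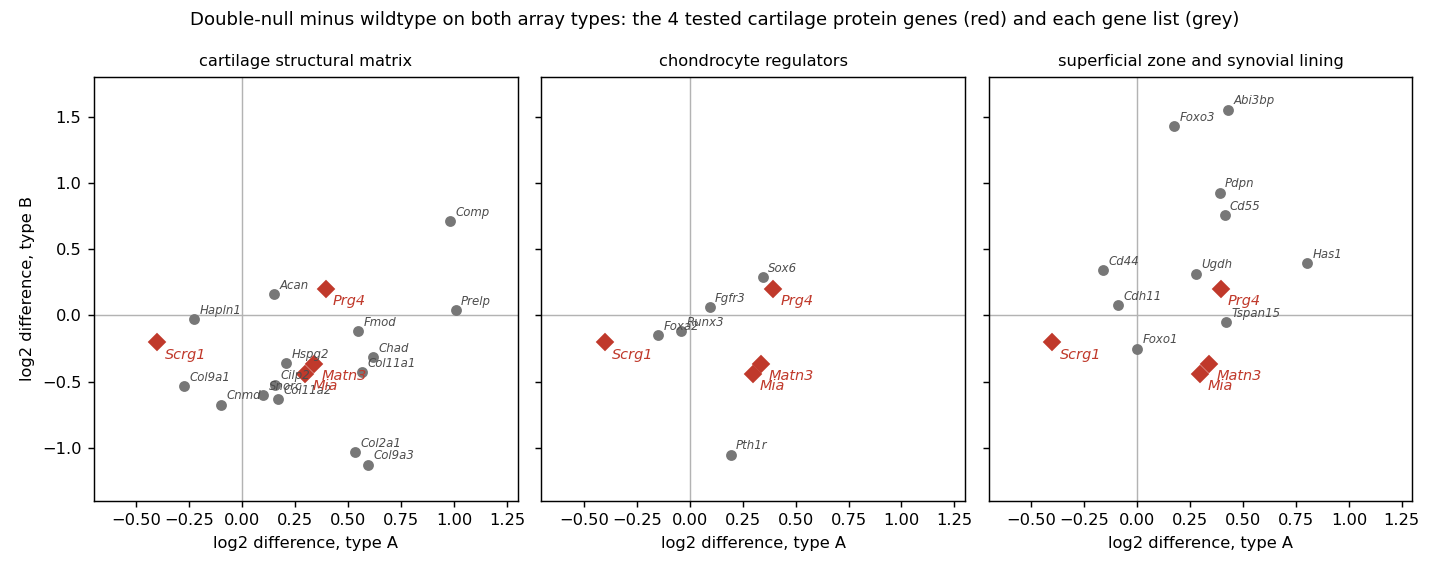
Log2 difference, double-null minus wildtype, on array type A (horizontal axis) against array type B (vertical axis), for the 4 tested cartilage protein genes (red diamonds, repeated in each panel) and the tested genes of 3 lists (grey circles). Matn3 and Mia sit in the lower right quadrant with 9 of the 15 cartilage structural genes. Prg4 sits in the upper right quadrant with several lining genes, but also with genes of the other lists, Comp and Sox6 among them. Scrg1 sits in the lower left, where other cartilage structural genes also lie, Col9a1 among them.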

How the data were processed

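The deposited values were linear signal intensities of probe sets. The submitters' processing notes name MAS5, with its version and target not given in the sources used here. RNA was extracted with Trizol and silica columns and labelled with biotin by in-vitro transcription, per the labels' protocols. Both tables held the same 22690 probe sets, and both held both genotypes.

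Quantile normalisation of log2(signal + 32) covered all 5 arrays. The platform annotation gave 1 symbol for 20393 probe sets, several for 691 and none for 1606, and 20364 symbols were updated through gene numbers. A gene was represented by its brightest probe set, and genes whose mean exceeded the 40th percentile were tested with limma 3.58.1 in R 4.3.3 (lmFit and trended eBayes, two-sided tests, Benjamini-Hochberg adjustment, threshold 0.05, with 2 residual and 9.80 prior degrees of freedom). A second fit took all 22626 probe sets other than controls. Means ± SD are of deposited signals. In 1 simulated set of 7436 genes with the double-null and wildtype layout, 94% of 100 genes moved by a log2 of 1 and 100% of 100 moved by 2 were called, beside 13 false calls. Noise was independent between genes, so these rates check the code and not the power.

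The genes, lists and tests were chosen with earlier results of these data known. The text names all listed genes, Epyc and Bgn, and up to 2 genes with the smallest p of a list. Values for Comp, Abi3bp, Thbs4 and Tnmd with a pool left out were singled out after they were seen. Lists are described by counts and medians, without a set test. The number of arrays limits the precision.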

Additional observations from a re-analysis of the deposited data

Results flagged for a closer look

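Opposite directions on the 2 array types drew attention to 3 genes, with the double-null array above wildtype on type A and both double-null arrays below wildtype on type B. For Matn1, whose signals lay near the Bacillus controls, type A gave a log2 difference of 0.061 and type B gave -0.60. For Matn3, type A gave 0.34 and type B gave -0.37. For Mia, type A gave 0.30 and type B gave -0.44. The difference between the types was not tested, and type A rests on 1 array of each genotype.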

How the results depend on the processing

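Across 17 alternatives (other scaling, smaller and larger pseudocounts, other filters, no array-type term, type B alone, a replicate block, no intensity trend, other handling of probe sets, and each array left out) 0 of the 4 tested genes passed in any. Prg4 stayed positive (0.20 to 0.54) and Scrg1 negative (-0.40 to -0.18) in all 17, and Matn4 stayed positive (0.24 to 0.56) in the 13 run for it. With single arrays left out, Matn3 ran from -0.37 to 0.34, Mia from -0.44 to 0.30, Matn1 from -0.60 to 0.061, and the probe sets of Matn2 from -0.090 to 0.30 and from -0.41 to 0.57. The first Matn2 probe set was at -0.090 on type B alone. The median of the 4 tested genes, -0.095, ran from -0.29 to 0.32 with single arrays left out and was -0.29 on type B alone. That of the cartilage structural list ran from -0.43 to 0.21 and was -0.43 on type B alone. That of the chondrocyte regulators ran from -0.12 to 0.095 and was 0.076 with the filter at the 60th percentile. That of the lining list ran from 0.33 to 0.39, and was 0.31 with the larger pseudocount and 0.26 with the mean over probe sets. The count of genes called in the cartilage structural list and in the lining list ran from 0 to 1 with single arrays left out. A lone array of a type is fitted exactly, so dropping a type A array yields the contrast of type B, and dropping wildtype pool 1 yields the contrast of type A. Over all genes the fit called 9, against 0 with the replicate block, 2 without the filter, 23 once double-null pool 1 was left out and 50 once pool 2 was. The causes were not tested. Pools 1 and 2 carry the same numbers in both genotypes, and whether equal numbers mean a shared batch is not known. The correlation of their deviations from the group means, across genes, was 0.0048 for number 1 and -0.18 for number 2. For the type A arrays it was 0.17. With 2 wildtype pools, whose deviations mirror each other, these correlations cannot decide the question. With the replicate block and no array-type term, Prg4 was at 0.54 (limma unadjusted p = 0.043, adjusted p = 0.71). That fit called 0 of all 7436 genes, so the lack of a call among the 4 genes is not particular to them. Dim signals limit Matn1 and the second Matn2 probe set.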
